A study of Mus musculus with 4 samples.

Results

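Of 121567 distinct integration positions in 4 libraries, 443 (0.364%) were listed at exactly the same base, on the same strand, in 2 or more libraries. An integration position is the genomic base next to the end of an inserted vector. Positions were chosen by this identity alone: the junction was read from each listed interval as its first base on the plus strand or its last base on the minus strand, and chromosome, strand and position had to coincide. The counts of identical positions are therefore a description of what the rule found, while reads, neighbouring positions and the opposite strand were not used by it.

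The libraries come from HIT-seq, in which a chromatin protein carries the integrase-binding domain of LEDGF as a fusion and the insertions of an HIV-based vector mark where the fusion sits. All cells were C57BL/6 mouse embryonic fibroblasts (E2 MEF-KO cells) lacking Psip1 (Psip1 -/-), the gene of LEDGF/p75, so that the cells' own tether of HIV integrase is missing in every group. They were nucleofected with a fusion plasmid, recovered for 24 to 36 h, sorted for GFP, infected with 500 ng of vector in 8 µg/mL polybrene and harvested 48 to 72 h later. The groups were the PHD domain of TAF3 with the M880A substitution (PHD M880A), the wild-type PHD domain (PHD WT), full-length TAF3 with M880A (Full M880A) and wild-type full-length TAF3 (Full WT), with 1 library each. No difference below therefore has a replicate check, no test between groups was possible, and the 95% intervals are exact binomial or Poisson intervals that cover counting error only. The sources used here do not give the promoter of the fusion plasmid or the number of cell cultures, and integration sites in genomic DNA carry no expression with which to check the cell type.

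HIV integrase joins both ends of the viral DNA to the 2 target strands at points 5 bp apart, so 1 target can receive the vector in either orientation. The enzyme has only a weak preference for the local base sequence, and its choice of region is set largely by LEDGF/p75, which binds chromatin on its own. TAF3 is a subunit of TFIID, the general transcription factor that recognises promoters, and its PHD finger binds histone H3 that carries 3 methyl groups on lysine 4, as at active promoters. M880A changes a residue of that finger. Neither a genome nor an annotation of build mm9 was used, so positions are given without genes and without sequence.

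The PHD M880A list held 34888 positions and 2085037 reads, the PHD WT list 25363 positions and 2228958 reads, the Full M880A list 39292 positions and 3651264 reads, and the Full WT list 22486 positions and 2119983 reads. A read here is the whole number attached to each listed site, with a minimum of 2 in every list. By the read names, 1 flow cell held Full WT alone, and another held the other 3 libraries in 3 lanes. The share of a list that recurred elsewhere was low in PHD M880A and high in both WT libraries. In PHD M880A, 96 positions were also in another list, 0.275% (0.223 to 0.336). In PHD WT there were 326, 1.29% (1.15 to 1.43). In Full M880A there were 187, 0.476% (0.410 to 0.549), and in Full WT 296, 1.32% (1.17 to 1.47). The interval of PHD M880A lay below that of PHD WT, and the interval of Full M880A below that of Full WT, while those of PHD WT and Full WT overlapped. The shares of PHD WT and Full WT are not separate, since 200 positions count in both. No share was adjusted for list length, and both M880A lists were longer than the WT lists.

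Most identical positions joined only 2 libraries, and the WT pair was the most frequent combination. Of the 443, 425 (95.9%) were in 2 libraries, 17 (3.84%) in 3 and 1 in all 4. The combination of PHD WT and Full WT alone held 185, 41.8% (37.1 to 46.5) of the total. PHD WT with Full M880A followed with 97 (21.9%, 18.1 to 26.0), and Full M880A with Full WT had 61 (13.8%, 10.7 to 17.3). The combinations that include PHD M880A were rarer: 34 with Full WT, 27 with PHD WT and 21 with Full M880A. Their intervals overlapped one another, and all lay below that of Full M880A with Full WT.

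**Figure D1:**
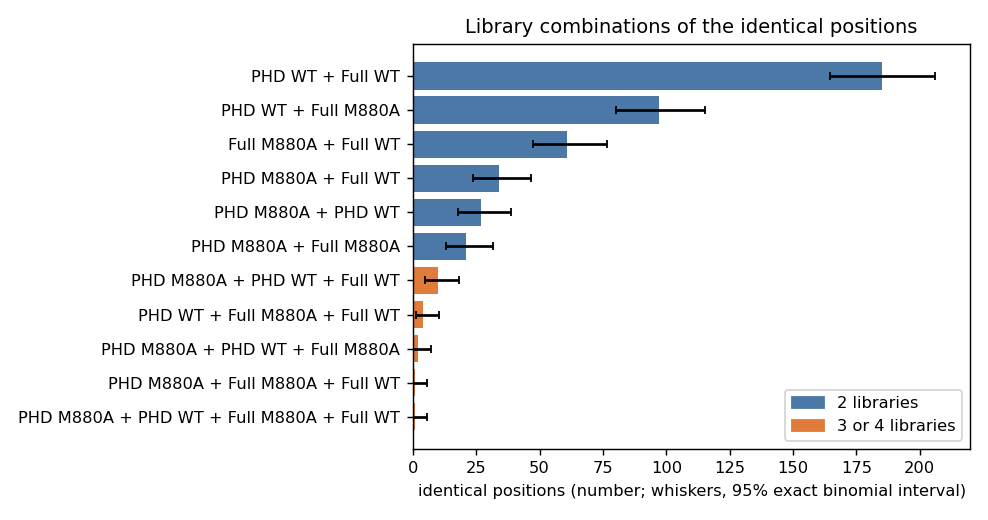
Number of identical positions (horizontal axis) in each combination of libraries, with blue bars for 2 libraries and orange bars for 3 or 4; whiskers are 95% exact binomial intervals of the share of all 443. PHD WT with Full WT has the longest bar (185), and the 5 combinations of 3 or 4 libraries together hold 18.

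Since long lists share more positions, each count was also divided by the number of possible pairs of sites, with positions in 3 or 4 libraries counted in every pair they join. This rate was 0.351 per 1000000 site pairs (0.304 to 0.403) for PHD WT and Full WT, from 200 shared positions. It was 0.104 (0.0853 to 0.126) for PHD WT and Full M880A, from 104, and 0.0758 (0.0588 to 0.0963) for Full M880A and Full WT, from 67. With PHD M880A the rates were lower: 0.0586 (0.0429 to 0.0782) for Full WT, from 46 positions, 0.0452 (0.0323 to 0.0616) for PHD WT, from 40, and 0.0182 (0.0118 to 0.0269) for Full M880A, from 25. In this rate the WT pair stood above every other pair, and the M880A pair below every other pair, by intervals that did not overlap. The rate allows for list length only, and the order was different over each pair's own nearby offsets, given below. Pooled over pairs, sharing a flow cell did not go with more identical positions. The 3 pairs on 1 flow cell had 0.0520 per 1000000 (0.0444 to 0.0604), from 169 positions, and the 3 pairs with Full WT had 0.140 (0.125 to 0.156), from 313. Of the 313, 200 came from PHD WT with Full WT. The other pairs with Full WT, at 0.0586 and 0.0758, lay within the range of the pairs on 1 flow cell, 0.0182 to 0.104. Opposite-strand matches at 4 bp, described below, differed in the same direction, with 0.0437 and 0.101 per 1000000. Flow cell and the presence of Full WT cannot be told apart in this contrast.

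Identity at a single base was far more frequent than a near miss at any other single offset up to 50 bp on the same strand. In every pair, however, the sum of near misses over 1 to 50 bp exceeded the identical matches. It was 1352 against 200 in PHD WT with Full WT, and 183 against 46 in PHD M880A with Full WT. Summed over the 6 pairs of libraries, 482 matches lay at an offset of 0 on the same strand. Offsets of 6 to 50 bp in either direction held on average 33.4 matches each, with a range of 18 to 55 over 90 offsets. The matches at 0 were thus 14.4 times (13.2 to 15.8) the mean of these more distant offsets. Just outside the rule, 81 and 80 matches lay 1 bp before and 1 bp after, 2.43 and 2.40 times that mean. The fold at offset 0 over the pair's own mean was between 11.5 (9.41 to 13.9) in PHD WT with Full M880A and 26.4 (19.3 to 35.2) in PHD M880A with Full WT. That of PHD WT with Full WT was 15.7 (13.6 to 18.0). Its mean at the more distant offsets, 12.7, was the highest of the 6 pairs. The pair with the most identical positions thus also had the most near misses. In PHD M880A with Full M880A the fold was 18.0 (11.6 to 26.6), over a mean of 1.39, the lowest of the 6. The low rate of that pair per site pair therefore did not recur in this fold.

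The opposite strand, which the rule did not use, held a second peak. When a site of one library was compared with sites of another on the opposite strand, 368 matches lay exactly 4 bp further along, so that the bases of both junctions span 5 bp. If junctions were read from only 1 end of the vector, this is how insertions of opposite orientation into the same target would be listed. Whether only 1 end was read was not tested. The 368 matches were 11.4 times (10.3 to 12.6) the mean of 32.3 matches at offsets of 6 to 50 bp on the opposite strand. A further 71 and 62 matches lay at 3 and 5 bp. Identical matches were somewhat more numerous than these opposite matches, 482 against 368, with a ratio of 1.31 (1.14 to 1.5). The 482 came from 443 positions, since a position in 3 or 4 libraries counts in every pair it joins. The interval treats matches as independent, here and in the sums over pairs below. At 3 targets, identical positions were found on both strands: 45693649 to 45693653 of chromosome 17 and 83081592 to 83081596 of chromosome 18, in PHD WT and Full WT on each strand, and 5475473 to 5475477 of chromosome 19, in Full M880A and Full WT on the plus strand and in PHD WT and Full WT on the minus strand.

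**Figure D2:**
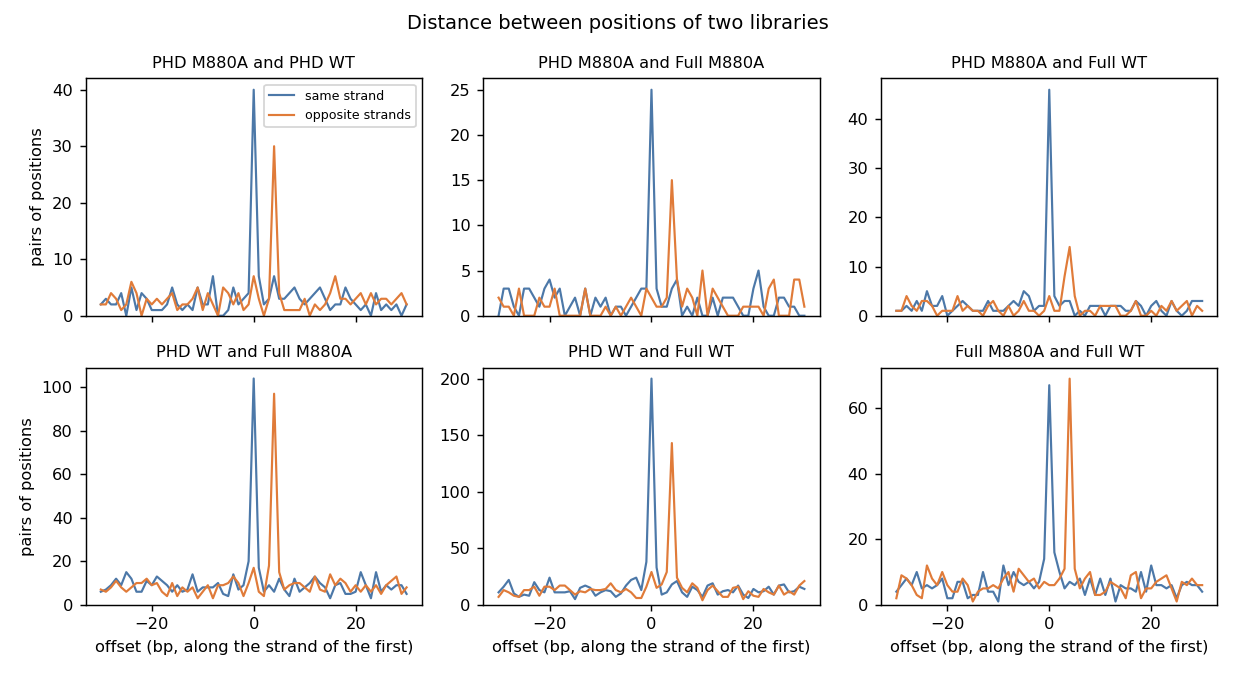
Number of pairs of positions (vertical axes, different scales) at each offset in bp (horizontal axes) between the libraries named above each panel, on the same strand (blue) and on opposite strands (orange); offsets run along the strand of the first library. Each panel has a blue peak at 0 and an orange peak at 4 bp, nearly equal in Full M880A with Full WT (67 and 69) and unequal in PHD M880A with Full WT (46 and 14).

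The balance between identical and opposite matches was not alike in all pairs. In Full M880A with Full WT there were 67 identical and 69 opposite matches, a ratio of 0.971 (0.683 to 1.38). In PHD WT with Full M880A there were 104 and 97 (1.07, 0.805 to 1.43). For these pairs the interval held 1. In PHD WT with Full WT there were 200 and 143 (1.4, 1.12 to 1.75), and in PHD M880A with Full WT 46 and 14 (3.29, 1.77 to 6.47). The remaining pairs had 40 and 30 (PHD M880A with PHD WT) and 25 and 15 (PHD M880A with Full M880A), with intervals reaching from below 1 to above 1. At a minimum of 10 reads, 213 of 82797 positions (0.257%) were identical in 2 or more lists, and the counts of both kinds of match lay closer: 217 identical and 191 opposite over all pairs, a ratio of 1.14 (0.931 to 1.39). Among the remaining matches, with under 10 reads in one or both libraries, there were 265 and 177, a ratio of 1.5 (1.23 to 1.82). At 10 reads the PHD WT and Full WT pair had 87 and 80 (1.09, 0.793 to 1.49), and the PHD M880A and Full WT pair 18 and 8 (2.25, 0.931 to 5.98).

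Identical positions were usually as well covered as the rest of their lists, except in PHD M880A. The median number of reads was 14.5 for identical positions and 23 for positions in 1 library in PHD M880A. In PHD WT the medians were 24 and 29, in Full M880A 27 and 24, and in Full WT 51.5 and 41. The share of sites at the low end, with 2 to 3 reads, separated PHD M880A from the other lists. It was 32.3% (23.1 to 42.6) of the identical positions and 15.3% (15.0 to 15.7) of the others in PHD M880A. In PHD WT it was 21.2% (16.9 to 26.0) and 21.2% (20.7 to 21.7), in Full M880A 17.6% (12.5 to 23.9) and 18.6% (18.2 to 19), and in Full WT 12.2% (8.67 to 16.4) and 12.7% (12.3 to 13.1). Without the 18 positions in 3 or 4 libraries the PHD M880A median of the identical positions was 22.

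Reads of the same position in its 2 libraries mostly differed several-fold. The median ratio of the higher to the lower number was between 3.58 in PHD M880A with PHD WT and 5.29 in Full M880A with Full WT. In PHD WT with Full WT the ratio was at least 10 at 68 of 200 positions. Of all 443 positions, 211 (47.6%) had at least 10 reads in every library that listed them, 141 (31.8%) had 2 to 3 reads in at least 1, and 21 had 2 to 3 reads in every one. Summed reads of a position ran from 4 to 1882, with a median of 104. Spearman's coefficient between the reads of both libraries was 0.75 over the 46 positions of PHD M880A with Full WT, and between 0.08 and 0.38 in the other 5 pairs. These coefficients are descriptions across positions that share a library preparation and a lower limit of 2 reads.

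**Figure D3:**
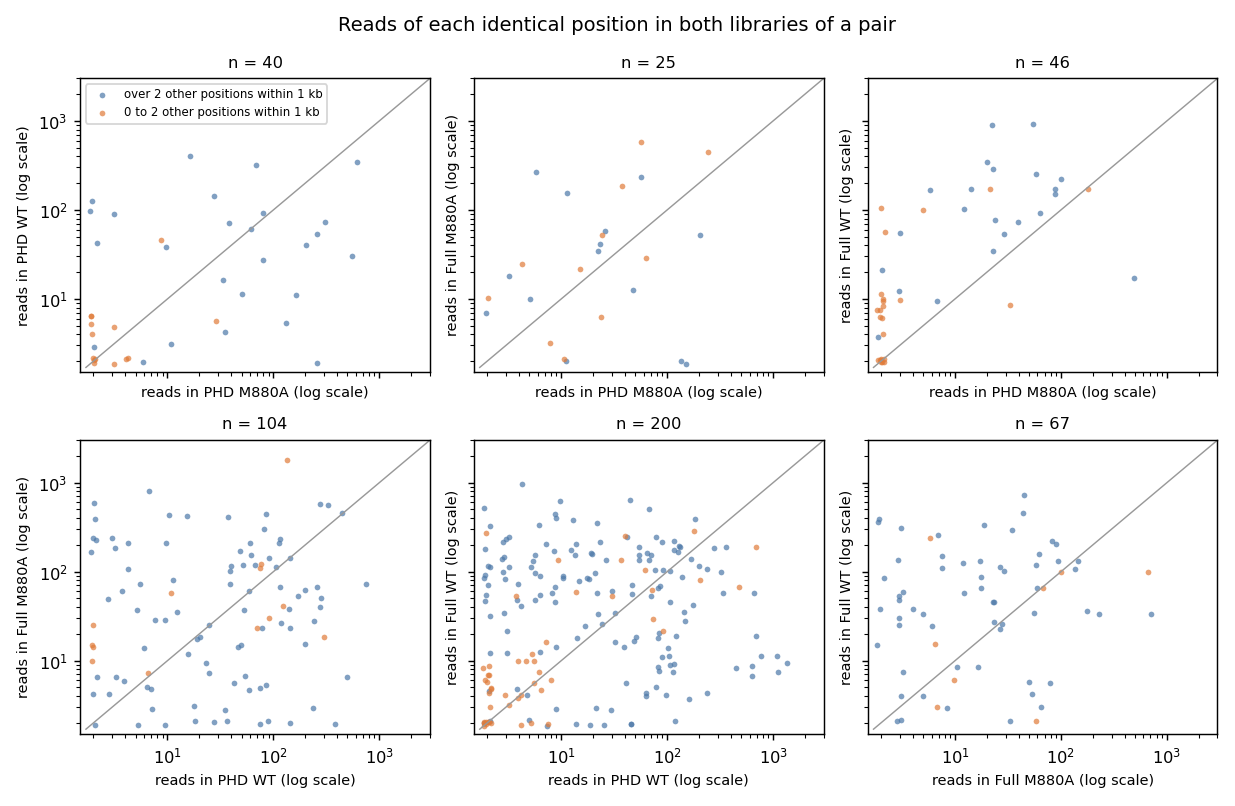
Reads of each identical position in both libraries of a pair (both axes logarithmic; points moved slightly at random so that equal values can be seen; grey line, equal reads), with orange points for positions that have 0 to 2 other positions within 1 kb. In PHD M880A with Full WT (top right) 36 of 46 points lie above the line, and orange points gather at 2 reads of PHD M880A.

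The pair of PHD M880A and Full WT stood apart in its reads. Full WT had more reads than PHD M880A at 36 of 46 shared positions (78.3%, 63.6 to 89.1), fewer at 2, and the same number at 8. The medians were 3 reads in PHD M880A (quartiles 2 and 24) and 18 in Full WT (6.5 and 142.5). In no other pair did 1 library have more reads at over 64% of the shared positions. The whole lists differed in the same direction, with medians of 23 reads in PHD M880A and 41 in Full WT. Of the 46 positions, 34 were in no other library. At 24 of the 46 positions PHD M880A had only 2 to 3 reads. There the medians were 2 reads in PHD M880A and 7 in Full WT, and 20 of the 24 had at most 2 other positions within 1 kb. At the 19 positions with at least 10 reads in PHD M880A the medians were 32 reads in PHD M880A and 162 in Full WT, and 3 of the 19 had so few neighbours.

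The read class shows the same imbalance from the side of the whole PHD M880A list. Of its 5366 positions with 2 to 3 reads, 24 were identical to a Full WT position, 0.447% (0.287 to 0.665), and 3 matched one on the opposite strand, 0.0559% (0.0115 to 0.163). Of its 23927 positions with at least 10 reads, 19 were identical to one of Full WT, 0.0794% (0.0478 to 0.124), and 11 matched on the opposite strand, 0.0460% (0.0230 to 0.0822). The 2 to 3 read class of PHD M880A held 15 positions identical to PHD WT (0.280%, 0.157 to 0.461) and 2 on the opposite strand (0.0373%, 0.00451 to 0.135). Most of these 15 are among the 24 for Full WT, so the 2 counts are not separate. Of the 15, 9 joined PHD M880A, PHD WT and Full WT, and 1 was the position in all 4 libraries. With at least 10 reads there were 21 identical and 20 opposite matches to PHD WT. With Full M880A the 2 to 3 read class held 3 of each (0.0559%). In PHD WT, low reads went with more identical than opposite matches to Full WT. Of the PHD WT positions with 2 to 3 reads, 47 were identical to one of Full WT (0.873%, 0.642 to 1.16) and 21 matched on the opposite strand (0.390%, 0.242 to 0.596). With 4 to 9 reads there were 41 and 18, and with at least 10 reads 112 and 104. Against Full M880A, PHD WT positions with 2 to 3 reads had 17 matches of each kind. With 4 to 9 reads they had 16 identical and 7 opposite, and with at least 10 reads 71 and 73.

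Identical positions lay in crowded places. They had a median of 8 other positions of the 4 libraries within 1 kb (quartiles 4 and 14, highest 48), while positions in 1 library had a median of 0 (quartiles 0 and 3, highest 49). The means were 9.38 and 2.54, a ratio of 3.70. That ratio mixes lists of unlike crowding, and within a list it ran from 1.69 to 12.8. In PHD M880A the identical positions had a median of 5.5 and a mean of 8.13 neighbours, and the other positions of that list 0 and 0.635. In PHD WT they had a median of 8 and a mean of 9.30, and the others 4 and 5.49, in Full M880A 9 and 10.1, and the others 0 and 1.69, and in Full WT 8 and 9.19, and the others 1 and 3.67. The lists thus differed more in the crowding of their other positions than in that of the identical ones. Over 10 neighbours were found at 40.6% (36.0 to 45.4) of the identical positions and at 7.96% (7.81 to 8.12) of the others, and none at 12% (9.09 to 15.4) and 58.6% (58.3 to 58.9). By library, identical positions had on average 0.632 PHD M880A, 4.22 PHD WT, 1.87 Full M880A and 2.49 Full WT neighbours that were listed in 1 library only, and the other positions had 0.180, 1.12, 0.540 and 0.664. Crowded places offer more chances of an identical base, so density and identity are not independent measures.

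The share of positions that recurred in another library grew with the number of neighbours. It was 0.0746% (0.0559 to 0.0976) of positions with no other position within 1 kb, 53 of 71015. It was 0.219% (0.157 to 0.297) with 1 to 2 neighbours, 0.649% (0.510 to 0.812) with 3 to 5 and 0.902% (0.730 to 1.10) with 6 to 10. With 11 to 20 neighbours it was 1.75% (1.47 to 2.06), 139 of 7955, and with 21 or more 2.19% (1.58 to 2.96), 41 of 1871. The intervals of 3 to 5 and 6 to 10 neighbours overlapped, as did those of the last 2 classes. These classes pool lists that differ both in crowding and in recurrence, so the shares were also taken within each list. Without a neighbour, 0.0914% (0.0597 to 0.134) of the PHD M880A, 0.596% (0.416 to 0.828) of the PHD WT, 0.0526% (0.0288 to 0.0882) of the Full M880A and 0.394% (0.282 to 0.536) of the Full WT positions recurred. With 11 to 20 neighbours the shares were 4.48% (2.76 to 6.84), 2.94% (2.43 to 3.52), 3.71% (2.84 to 4.76) and 3.97% (3.20 to 4.87) in the same order. The difference between these classes was thus present within every list, smallest as a ratio in PHD WT. In both PHD WT and Full WT the intervals with 0 and with 1 to 2 neighbours overlapped.

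**Figure D4:**
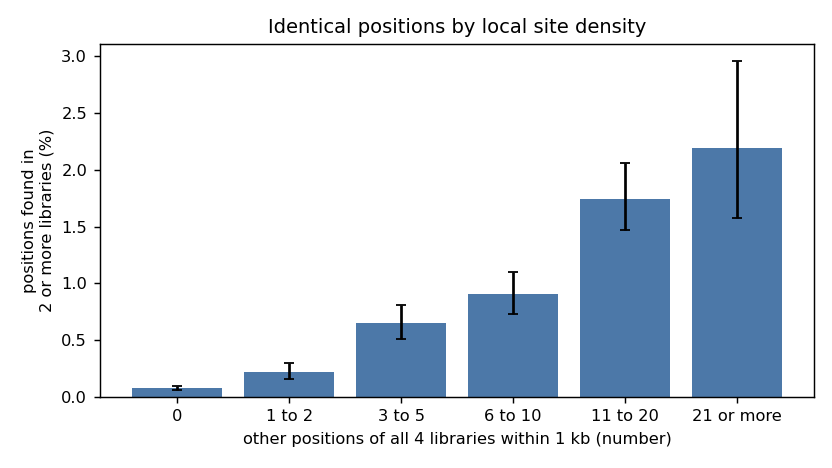
Percent of positions found identically in 2 or more libraries (vertical axis) by the number of other positions of all 4 libraries within 1 kb (horizontal axis); whiskers are 95% exact binomial intervals. The share is 0.0746% without neighbours and 2.19% with 21 or more.

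Neighbour numbers differed among the combinations. Of the positions in PHD WT and Full M880A alone, 3 of 97 had no neighbour (3.09%, 0.642 to 8.77), and their median was 9. Full M880A with Full WT also had a median of 9, with 3 of 61 lacking a neighbour. PHD WT with Full WT had a median of 8 and 21 of 185 without one (11.4%, 7.17 to 16.8). PHD M880A with PHD WT had a median of 11, and 3 of 27 had none. Positions shared by PHD M880A with Full WT alone had a median of 5.5 and 9 of 34 without a neighbour (26.5%, 12.9 to 44.4), and those shared with Full M880A a median of 4 and 6 of 21 (28.6%, 11.3 to 52.2). The 18 positions in 3 or 4 libraries were the most isolated set, with a median of 1 neighbour and 8 without any (44.4%, 21.5 to 69.2).

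Isolated identical positions more often had few reads in at least 1 library than crowded ones did. Among the 53 without a neighbour, the lowest read number of the libraries involved had a median of 2, and it was 2 to 3 in 34 (64.2%, 49.8 to 76.9). Among the 180 with over 10 neighbours that median was 11, and 45 had a lowest number of 2 to 3 (25%, 18.9 to 32.0). At least 10 reads in every library were found at 24.5% (13.8 to 38.3) of the 53 and at 52.2% (44.7 to 59.7) of the 180. The lowest number was taken over 3 or 4 libraries at 8 of the 53. Positions in 1 library were not divided in this way. PHD M880A was involved in 26 of the 53 and in 33 of the 180. Of the 21 positions with 2 to 3 reads in every library, 12 had no neighbour (57.1%, 34.0 to 78.2), compared with 13 of the 211 with at least 10 reads in every library (6.16%, 3.32 to 10.3).

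The isolated places were also where identical and opposite matches parted. With 0 to 2 neighbours there were 119 identical and 43 opposite matches over all pairs, a ratio of 2.77 (1.94 to 4.02). With 3 to 10 there were 175 and 142 (1.23, 0.982 to 1.55), and with over 10 there were 188 and 183 (1.03, 0.834 to 1.27). The partner itself was not counted as a neighbour of an opposite match. Positions in 3 or 4 libraries count in every pair they join, and the intervals treat matches as independent. The 119 identical matches came from 53 positions without a neighbour and 41 with 1 to 2. In PHD M880A with Full WT the isolated class held 24 identical and 1 opposite match, and in PHD WT with Full WT 49 and 15. In Full M880A with Full WT it held 8 and 13. Over 10 neighbours, the pairs had 13 and 10, 77 and 71, and 29 and 34 in the same order.

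**Figure D5:**
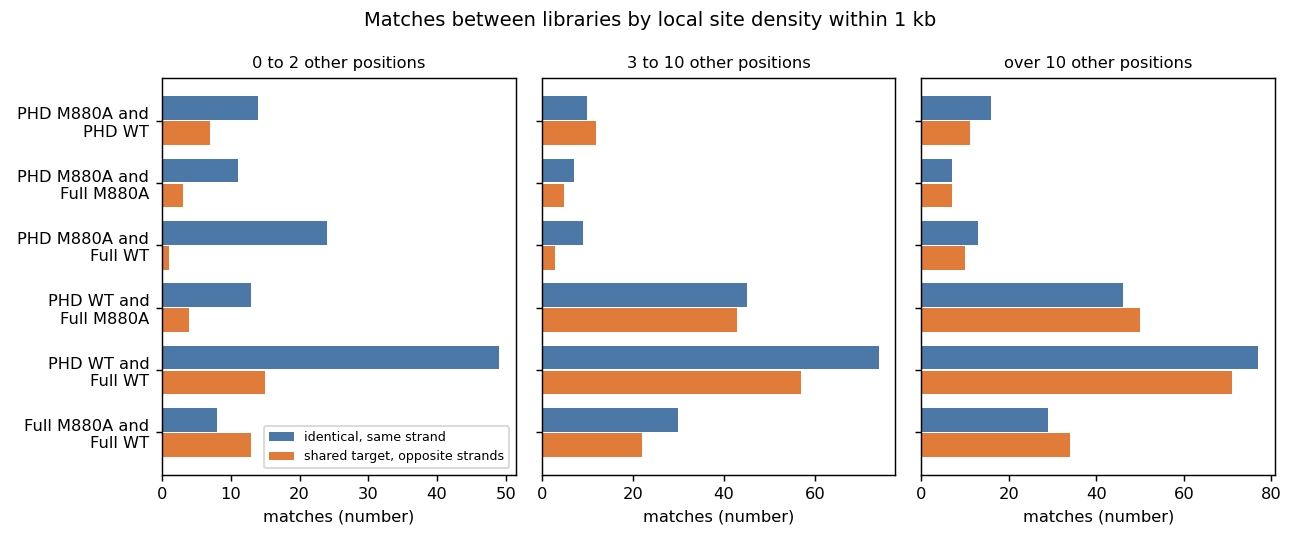
Identical matches (blue) and opposite-strand matches at the same 5 bp target (orange) for each pair of libraries, by the number of other positions within 1 kb; the bars are counts without an error bar. With over 10 neighbours the bars of a pair are similar in length, and with 0 to 2 neighbours the blue bar is longer in every pair except Full M880A with Full WT (8 and 13).

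The lengths of the listed intervals were not used by the rule. What sets the end away from the junction is not stated in the sources used. The median interval was 119 bp in PHD M880A, 119 bp in PHD WT, 147 bp in Full M880A and 106 bp in Full WT, beside reads of 108 nt. Both ends coincided at 19 of the 443 positions. In PHD WT with Full WT this was 11 of 200 (5.50%, 2.78 to 9.63), and in PHD M880A with Full WT 1 of 46 (2.17%, 0.0550 to 11.5). The median difference in interval length between the libraries of a position was between 25.5 bp in PHD M880A with PHD WT and 39 bp in PHD WT with Full WT. Most identical junctions were therefore listed with different far ends.

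The position in all 4 libraries was on chromosome X, plus strand, at 103276662. It had 2 reads in PHD M880A, 2 in PHD WT, 10 in Full M880A and 6 in Full WT, and no other position lay within 1 kb. Among the 17 positions in 3 libraries, 10 joined PHD M880A, PHD WT and Full WT, 4 joined PHD WT, Full M880A and Full WT, 2 joined PHD M880A, PHD WT and Full M880A, and 1 joined PHD M880A, Full M880A and Full WT. In 9 of the 10 of the first kind PHD M880A had 2 to 3 reads, and in 8 of them both PHD libraries had under 10. Of all 18, only 2 had at least 10 reads in every library.

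Those 2 lay in crowded places. On chromosome 3, plus strand, 95463932 had 523 reads in PHD M880A, 33 in PHD WT and 16 in Full WT, with 18 other positions within 1 kb. On chromosome 11, plus strand, 120208789 had 24 reads in PHD M880A, 35 in Full M880A and 288 in Full WT, with 21 other positions. The library with the most reads thus differed between them.

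Uneven reads marked the next positions by summed reads. On chromosome 10, plus strand, 70807193 had 2 reads in PHD M880A, 122 in PHD WT and 20 in Full WT. On chromosome 16, minus strand, 17454183 had 137 reads in PHD M880A, 5 in PHD WT and 2 in Full M880A. On the same strand of that chromosome, 32078350 had 6 reads in PHD WT, 13 in Full M880A and 58 in Full WT. These had 6, 12 and 6 other positions within 1 kb.

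The other 5 of the 10 with the most reads had under 40 reads in all. On chromosome 5, plus strand, 93523460 had 23 reads in PHD WT, 9 in Full M880A and 3 in Full WT. On chromosome 15, minus strand, 88711282 had 4 reads in PHD M880A, 2 in PHD WT and 26 in Full M880A. On chromosome 3, plus strand, 30004441 had 7 reads in PHD WT, 7 in Full M880A and 15 in Full WT. The first of these had 8 neighbours, the second 0 and the third 1. On chromosome 16, minus strand, 76874820 had 2 reads in PHD M880A, 5 in PHD WT and 12 in Full WT. On chromosome 19, minus strand, 42948476 had 3 reads in PHD M880A, 5 in PHD WT and 10 in Full WT. Neither had a neighbour within 1 kb.

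The best covered positions of each pair, ranked by the lower of the 2 read numbers, show how high the support can be in both libraries. In PHD WT and Full WT, 33999809 on chromosome 5, minus strand, had 697 reads in PHD WT and 205 in Full WT. On chromosome 15, minus strand, 98397448 had 200 in PHD WT and 403 in Full WT. On chromosome 3, minus strand, 85945910 had 299 in PHD WT and 195 in Full WT. They had 0, 13 and 5 neighbours, so the first was isolated despite its reads.

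In PHD WT and Full M880A the support was higher still. On chromosome 8, plus strand, 127186433 had 469 reads in PHD WT and 439 in Full M880A. On chromosome 4, plus strand, 70070941 had 345 in PHD WT and 587 in Full M880A. On chromosome 19, plus strand, 6277379 had 284 in PHD WT and 594 in Full M880A. Their neighbours numbered 13, 5 and 14. In Full M880A and Full WT the leading positions were all on the plus strand. On chromosome 5, 140894875 had 146 reads in Full M880A and 125 in Full WT. On chromosome 4, 40670319 had 132 in Full M880A and 111 in Full WT. On chromosome 8, 86177039 had 101 in Full M880A and 132 in Full WT. They had 7, 14 and 3 neighbours.

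PHD M880A also had well covered identical positions. With PHD WT, 141092519 on chromosome 4, plus strand, had 655 reads in PHD M880A and 354 in PHD WT, with 20 neighbours. On the minus strand of chromosome 11, 86399806 had 77 reads in PHD M880A and 87 in PHD WT, and 98658769 had 294 in PHD M880A and 74 in PHD WT, with 20 and 13 neighbours. All 3 were thus in crowded places.

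With Full M880A, on the minus strand of chromosome 9, 63995827 had 244 reads in PHD M880A and 471 in Full M880A, and 44366094 had 58 in PHD M880A and 546 in Full M880A. Neither had another position within 1 kb. On chromosome 8, minus strand, 114255196 had 192 reads in PHD M880A and 55 in Full M880A, with 23 neighbours. With Full WT, 80454604 on chromosome 17, plus strand, had 176 reads in PHD M880A and 182 in Full WT and no neighbour. On the same strand of chromosome 17, 45822058 had 104 in PHD M880A and 217 in Full WT, and on chromosome 16, plus strand, 17453152 had 93 in PHD M880A and 154 in Full WT. They had 8 and 22 neighbours. The last lies close to 17454183, the position in 3 libraries given above.

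Along the genome, identical positions were spread over 375 windows of 100 kb, and 325 of these windows held only 1. Of the 443, 71 (16.0%) had another identical position within 1 kb, and 213 (48.1%) were on the plus strand. Chromosome 17 held 50 identical positions, 11.3% of all, against 4.77% of the distinct positions. Of its 5794 positions 0.863% (0.641 to 1.14) recurred, against 0.339% (0.307 to 0.375) on the other chromosomes. This chromosome was singled out after the values were seen. Among positions with 6 to 10 neighbours the shares were 2.58% (1.45 to 4.22) on chromosome 17 and 0.803% (0.636 to 1.00) elsewhere. In the other 5 classes the intervals overlapped, and with 1 to 2 neighbours the share was 0.118% on chromosome 17 and 0.224% elsewhere. On chromosome 17, 30 of the 50 had at least 10 reads in every library, and 22 were of PHD WT and Full WT alone, 13 of PHD WT and Full M880A, 10 of Full M880A and Full WT, 4 of PHD M880A and Full WT, and 1 of PHD M880A and Full M880A.

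Of all windows, 6 held 4 or 5 identical positions, of different combinations. Among the windows with 4, the last by chromosome order was 5400001 to 5500000 of chromosome 19. It held its 4 among 134 positions, 2 of Full M880A and Full WT, 1 of PHD WT and Full M880A, and 1 of PHD WT and Full WT. On chromosome 17, from 35100001 to 35200000, there were 5, among 78 positions: 2 of PHD WT and Full M880A, 2 of Full M880A and Full WT, and 1 of PHD WT and Full WT. On chromosome 19, from 5800001 to 5900000, there were also 5, among 135 positions. They included 5800937 on the plus strand, with 8 reads in Full M880A and 106 in Full WT and 48 other positions within 1 kb, the most of any identical position. None of the 5 on chromosome 17 involved PHD M880A, which had 5 positions in that window, while 2 of those on chromosome 19 did, where PHD M880A had 35.

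On chromosome 5, from 143500001 to 143600000, 4 identical positions lay between 143576070 and 143578343, each of another combination. At 143576070 PHD M880A had 2 reads and PHD WT 95, and at 143576174 PHD WT had 2 and Full WT 95. At 143577696 Full M880A had 24 and Full WT 48, and at 143578343 PHD WT had 8 and Full M880A 30. On chromosome 6, from 51400001 to 51500000, the 4 lay between 51417808 and 51421389. All of these involved PHD WT, 2 with PHD M880A and 2 with Full WT. On chromosome 17, from 34200001 to 34300000, the 4 lay between 34255649 and 34260451, and all involved Full M880A, 2 with PHD WT and 2 with Full WT. At 34257058 PHD WT had 95 and Full M880A 154 reads, and at 34260451 PHD WT had 62 and Full M880A 128. All 4 of this window had at least 27 reads in each library.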

How the data were processed

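Integration sites were measured by HIT-seq in 4 libraries, 1 per group: PHD M880A, PHD WT, Full M880A and Full WT. Per the labels' protocols, 10 µg of DNA was sheared to a mean of 500 bp, junctions were enriched by nested PCR with linker primers, 15 cycles of library PCR followed, and paired reads had 108 nt. The authors deposited 1 list of sites per library. Coordinates are in mm9 and MACS 1.4.2 is named with no role given, per the submitters' processing notes. The aligner, filters and merging of reads are not given in the sources used. The number after each read name was taken as reads from its values only. The reads carry no molecular identifier and are not independent molecules.

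Lines that shared chromosome, strand and junction were collapsed and their reads summed, which removed 472, 722, 401 and 354 lines in the order above. Neighbours are distinct positions of all 4 lists on either strand within 1000 bp. Named positions were those in 4 libraries, the 10 in 3 libraries with the most summed reads, the 3 per pair with the highest lower read number and the 5 fullest windows of 100 kb, where ties went to the lower chromosome number and left a further window with 4 positions outside the rule. The members and all measures were chosen with earlier results of these data known. Matching and neighbour counts were tested on simulated data and returned what had been planted. An annotation was planned only for mm9 and was not used here. The alternatives were matching within 2 or 5 bp, a minimum of 10 reads, the other end of the interval, both ends, autosomes only, leaving out each library, other summaries of reads, neighbours within 5000 bp, neighbours with at least 10 reads, no same-strand neighbours within 10 bp and, chosen after seeing the data, neighbour numbers compared within each list. Python 3.11.15, numpy 2.4.6, pandas 2.3.3, scipy 1.17.1 and matplotlib 3.10.9 were used.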

Additional observations from a re-analysis of the deposited data

How the results depend on the processing

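The number of identical positions was 443 and depended on what was matched. It was 838 when positions within 5 bp were joined, 213 among sites with at least 10 reads, 67 by the other end of the interval and 19 with both ends identical. Leaving out 1 library gave between 134 and 361 positions: 134 without PHD WT, 163 without Full WT and 264 without Full M880A, which by construction hold fewer lists. Rates per 1000000 site pairs moved beyond their counting interval when matches within 2 bp were joined for PHD M880A with PHD WT (0.0633), PHD WT with Full M880A (0.153), PHD WT with Full WT (0.486) and Full M880A with Full WT (0.126). Within 5 bp the rates were 0.0825 for PHD M880A with PHD WT, 0.0292 with Full M880A and 0.0867 with Full WT, 0.199 for PHD WT with Full M880A, 0.663 with Full WT, and 0.163 for Full M880A with Full WT. By the other end they were 0.00435, 0.00143, 0.00250, 0.0126, 0.0627 and 0.0100 in the same order. In all 5 alternatives run on the rates, PHD WT with Full WT had the highest and PHD M880A with Full M880A the lowest. A minimum of 10 reads or autosomes only moved no rate beyond its interval. Median reads stayed within the quartiles, and the ratio of mean neighbour numbers was between 3.27 and 3.73 over all lists. Taken within a list, a comparison chosen after seeing the data, it was 12.8 in PHD M880A, 1.69 in PHD WT, 5.95 in Full M880A and 2.50 in Full WT. No paired analysis was possible because each group has 1 library. No list holds sites under 2 reads, so identity at lower support could not be seen.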

Other observations

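The shoulders of both peaks were raised as well. On the same strand, 81 and 80 matches between libraries lay 1 bp before and after an identical base, and on opposite strands 71 and 62 lay at 3 and 5 bp, beside the 368 at 4 bp. At an offset of 0 on opposite strands there were 65 matches, 2.01 times (1.55 to 2.57) the mean of the more distant offsets. Of the 81 and 80, PHD WT with Full WT gave 38 and 33.

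On chromosome 2, from 98500001 to 98600000, a window chosen after its values were seen held 3 identical positions of 3 different combinations among 32 positions. At 98506470 on the minus strand PHD M880A had 41 reads and PHD WT 71. At 98506726 on the plus strand PHD WT had 4 and Full M880A 6, and at 98507459 on the minus strand PHD M880A had 13 and Full WT 95. PHD M880A, the least crowded of the lists, had 10 of the 32 positions in this window. Repeats and the uniqueness of read mapping were not examined, in this window or elsewhere.

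Within a list, the same junction was given with several far ends at 459 positions of PHD M880A, 705 of PHD WT, 392 of Full M880A and 329 of Full WT.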
